A study of Mus musculus with 6 samples.

Results

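The duplicated *Plac9* and *Tmem254* locus of mouse chromosome 14 was examined in RNA-seq of colorectal tumors, through the genes named *Plac9a*, *Plac9b*, *Tmem254a*, *Tmem254b* and *Tmem254c*. Of these 5 genes, picked by name from 54167 gene rows with their genotype difference already known, 2 have values that could be analysed, *Plac9a* and *Tmem254a*. The other 3, *Plac9b*, *Tmem254b* and *Tmem254c*, were not analysed here, so that the *Plac9* sum is *Plac9a* alone and the *Tmem254* sum is *Tmem254a* alone. RNA came from 6 tumors, 3 from *Trp53fl/fl* mice, whose *Trp53* alleles carry loxP sites and stay intact without Cre, and 3 from *VP* mice. The *VP* mice carry *Pvillin-Cre* together with *Trp53fl/fl*, so that *Trp53* is removed where the villin promoter is active, in intestinal epithelial cells. The methods name separate sources for the *Trp53fl/fl* and *Pvillin-Cre* mice and do not say whether littermates were compared. Other differences between the lines, such as the number of copies of the locus, were not tested. All mice were male, of the C57BL/6J strain by their labels, and were given the carcinogen azoxymethane (AOM, 10 mg/kg) when 8 weeks old, after which 7-day courses of 2.5% DSS, a colitis-inducing sulfated dextran, alternated with plain water, and tumors were assessed on day 98. The tumors are whole tissue, in which stromal and immune cells keep *Trp53*, and in such samples more cells of a type and more RNA per cell cannot be told apart. Values are TPM, reads scaled for transcript length and library size, and nothing in the labels ties tumors of one number together across genotypes.

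*Plac9* encodes a small secreted protein that was first described in placenta, and *Tmem254* a small multi-pass membrane protein without a well-established function. In the reference annotation both belong to a tandem repeat, a stretch of chromosome that was copied head to tail, together with *Cphx*, a homeobox gene of the egg and early embryo, and *Duxbl*, a double homeobox gene of the same class as *Dux*. A gene inside such a repeat is read from several near-identical places, so a sequenced fragment often cannot be assigned to a single copy.

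GENCODE M21 (GRCm38) places 12 protein-coding genes in the stretch, 3 copies each of *Plac9*, *Tmem254*, *Cphx* and *Duxbl*, over 382 kb. *Plac9a* (ENSMUSG00000095304) lies on the minus strand of chromosome 14 from 25887506 to 25903100 and *Tmem254a* (ENSMUSG00000072676) on the same strand from 25923300 to 25927672. They are followed on the plus strand by *Cphx1* (ENSMUSG00000095975, 25938304 to 25956356) and *Duxbl1* (ENSMUSG00000048502, 25978577 to 25990088). The second copy holds *Gm9780* (26027282 to 26042711), which RefSeq gives the synonym Plac9, with *Tmem254c* (26063919 to 26067355), *Cphx2* and *Duxbl2*. The third holds *Plac9b* (26167405 to 26182480), *Tmem254b* (26203369 to 26207041), *Cphx3* and *Duxbl3*. The start of *Tmem254a* is 139.7 kb from that of *Tmem254c*, which is again 139.7 kb from that of *Tmem254b*. The same steps separate the *Plac9* copies (139.6 and 139.8 kb) and the *Duxbl* copies (139.8 and 139.6 kb). The GENCODE starts of the *Cphx* genes depart from this spacing, with 143.2 kb from *Cphx1* to *Cphx2* and 0.8 kb from there to *Cphx3*. *Cphx3* is annotated there from 26082297 to 26235744, over 153448 bases. RefSeq windows around the starts begin at 25942294 for *Cphx1*, 26082043 for *Cphx2* and 26221654 for *Cphx3*, in steps close to those of the other families. The departure thus lies in the GENCODE gene bounds. The letters of the *Tmem254* names do not follow the chromosome, where *Tmem254c* sits between *Tmem254a* and *Tmem254b*. Values exist here for the 4 genes of the copy next to *Anxa11*, namely *Plac9a*, *Tmem254a*, *Cphx1* and *Duxbl1*, and the other 8 genes were not analysed. Those 8 are among 9 protein-coding genes of chromosome 14 in GENCODE M21, and 73 of all chromosomes, that have no values here. The submitters' processing notes name the build mm9, so the coordinates above, which are those of GRCm38, need not be the ones behind the values.

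**Figure D1:**
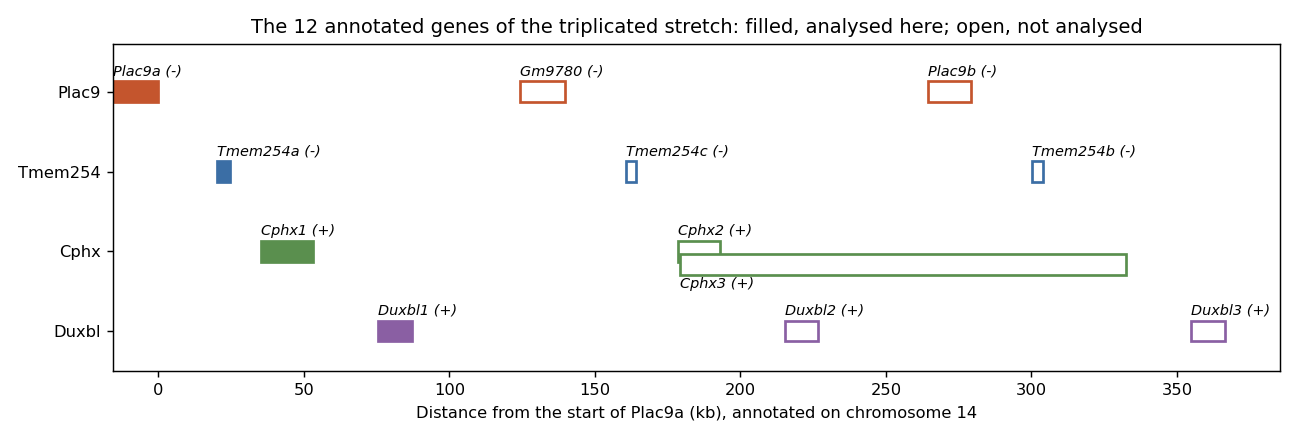
Map of the 12 annotated genes, with distance from the start of *Plac9a* in kb on the horizontal axis, 1 row per gene family and the strand in brackets. Filled boxes are the 4 genes with values in the 6 tumors and open boxes the 8 genes not analysed here. The families recur in the same order, with steps of 139.6 to 139.8 kb in the families other than *Cphx*. The *Cphx* boxes are spaced otherwise because they follow the GENCODE gene bounds.

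The copies are alike in sequence. The predicted proteins of *Plac9a*, *Gm9780* and *Plac9b* are identical over 108 residues, those of the *Tmem254* copies over 129, those of the *Cphx* copies over 182 and those of the *Duxbl* copies over 350. Of the 1744 different windows of 100 bases in the annotated transcripts of *Plac9a*, 1738 (99.7%) recur unchanged in *Gm9780* or *Plac9b*. For *Tmem254a* the number is 1956 of 2656 (73.6%), and its longest annotated transcript, of 2147 bases, exceeds those of *Tmem254c* (1211 bases) and *Tmem254b* (1447 bases). In the other direction, all windows of *Tmem254b* (1956) and of *Tmem254c* (1480) are found in another copy. The share was 78.6% for *Cphx1* and 86.9% for *Duxbl1*. No window of any of the 12 genes occurs in a transcript of a gene other than these 12. Sharing between the families was not searched. By windows of 100 bases these transcripts are thus mostly shared among the copies of their own family and with no annotated gene outside the 12. The sequenced reads and fragments were longer than these windows, and sharing over their full length was not searched. The TPM listed under *Plac9a* or *Tmem254a* may therefore hold RNA from all copies, and the share of each copy cannot be told from them. In annotated transcripts this holds more fully for *Plac9a* (99.7%) than for *Tmem254a* (73.6%). Part of the *Tmem254a* transcript sequence recurs in no annotated transcript of another copy. The genome sequence of the other copies was not searched for it, so that part need not be specific to *Tmem254a*.

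**Figure D2:**
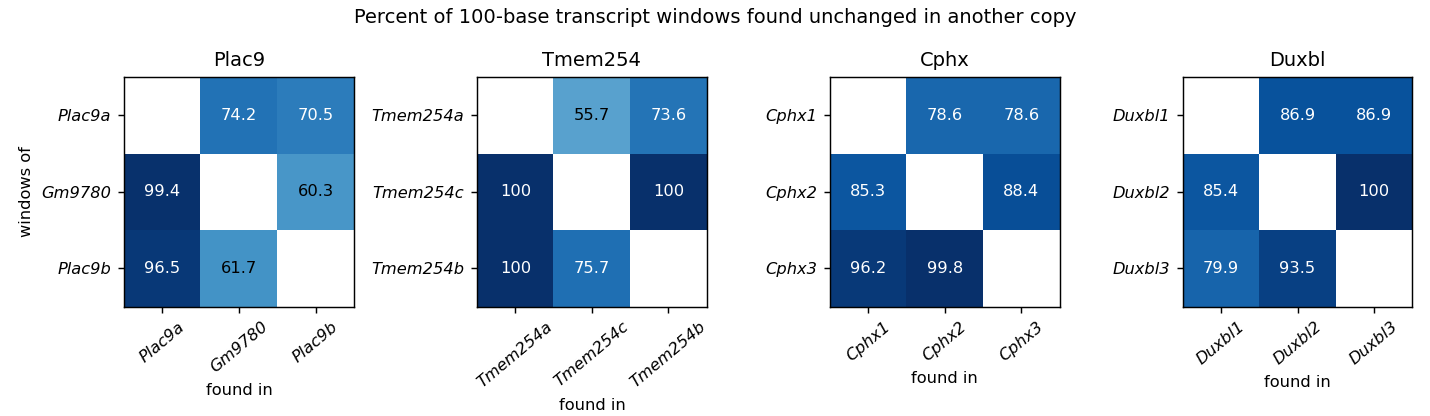
Percent of the 100-base transcript windows of each gene (rows) that occur unchanged in the transcripts of another copy (columns), for the 4 families. *Plac9a* holds 99.4% of the windows of *Gm9780* and 96.5% of those of *Plac9b*, and *Tmem254a* holds 100% of those of both its copies.

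The promoter windows are shown because they let the copies be compared around their annotated starts. RefSeq windows (GRCm38.p6, 300 bases that span an annotated start) were matched for 9 of the 12 genes. By the GENCODE coordinates above, those of *Plac9a* and *Plac9b* lie mostly inside the genes, and those of *Tmem254a* and *Tmem254b* mostly outside. The windows below are on the minus strand at chr14:25902844-25903143 for *Plac9a*, chr14:26182302-26182601 for *Plac9b*, chr14:25927623-25927922 for *Tmem254a* and chr14:26206976-26207275 for *Tmem254b*, read 5′ to 3′. Capitals mark the run that is letter for letter the same in the other copies of the family, or, for *Plac9b* and *Tmem254b*, in *Plac9a* and *Tmem254a*.
Plac9a: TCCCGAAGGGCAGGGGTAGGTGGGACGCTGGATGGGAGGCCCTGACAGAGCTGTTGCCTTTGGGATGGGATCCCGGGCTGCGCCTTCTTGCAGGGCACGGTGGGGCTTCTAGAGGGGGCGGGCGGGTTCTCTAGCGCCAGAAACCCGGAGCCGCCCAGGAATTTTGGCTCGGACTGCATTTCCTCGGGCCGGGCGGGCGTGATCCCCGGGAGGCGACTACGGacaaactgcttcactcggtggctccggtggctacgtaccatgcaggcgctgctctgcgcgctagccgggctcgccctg
Plac9b: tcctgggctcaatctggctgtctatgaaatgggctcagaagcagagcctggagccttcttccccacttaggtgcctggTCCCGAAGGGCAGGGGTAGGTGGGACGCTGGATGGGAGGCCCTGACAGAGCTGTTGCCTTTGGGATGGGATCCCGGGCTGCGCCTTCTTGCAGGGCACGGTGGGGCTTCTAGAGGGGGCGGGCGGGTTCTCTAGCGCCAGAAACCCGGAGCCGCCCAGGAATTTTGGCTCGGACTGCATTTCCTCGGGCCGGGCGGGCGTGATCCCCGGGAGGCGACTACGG
Tmem254a: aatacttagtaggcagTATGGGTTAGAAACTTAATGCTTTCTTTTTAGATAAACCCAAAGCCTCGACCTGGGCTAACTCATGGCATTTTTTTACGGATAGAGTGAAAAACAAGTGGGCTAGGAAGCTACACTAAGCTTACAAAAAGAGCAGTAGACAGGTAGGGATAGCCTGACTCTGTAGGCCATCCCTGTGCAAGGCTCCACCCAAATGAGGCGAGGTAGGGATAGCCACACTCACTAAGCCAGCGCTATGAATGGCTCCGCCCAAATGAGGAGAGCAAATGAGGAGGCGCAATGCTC
Tmem254b: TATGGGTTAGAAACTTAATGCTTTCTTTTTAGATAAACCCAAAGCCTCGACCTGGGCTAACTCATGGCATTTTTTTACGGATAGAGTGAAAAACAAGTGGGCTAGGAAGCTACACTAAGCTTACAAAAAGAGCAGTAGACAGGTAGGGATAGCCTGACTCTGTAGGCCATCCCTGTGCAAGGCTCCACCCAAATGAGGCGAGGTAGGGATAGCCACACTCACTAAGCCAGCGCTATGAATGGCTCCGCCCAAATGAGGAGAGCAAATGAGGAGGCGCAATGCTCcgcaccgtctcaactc
The windows of *Plac9a* and *Plac9b* overlap by 222 bases and do not differ at any of them, and lower-case letters at the ends only mark that the annotated starts are offset. The *Gm9780* window equals that of *Plac9b* at all 300 bases. Those of *Tmem254a* and *Tmem254c* are equal at all 300 bases, and that of *Tmem254b* at the 284 bases it shares with them. The *Cphx* windows agree as well, at 296 of 296 shared bases between *Cphx1* and either copy. Motifs were searched on both strands. GGGCGG, the core bound by Sp1-type factors, is in the windows of *Plac9a*, *Plac9b*, *Tmem254a* and *Tmem254b* shown, as in 35.7% of all 32851 RefSeq windows. TATAAA is in none of these 4 windows but in those of the 3 *Cphx* genes, against 13.6% of all windows. The p53 half-site was in none of the 12 windows matched, against 8.36% of all windows, which says only that these letters are absent from these windows.

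*Trp53* itself was at 99.3 to 147 TPM in the *Trp53fl/fl* tumors and at 27.8 to 38.5 TPM in the *VP* tumors, in the direction of the labels. The table sums to between 999964 and 1000067 TPM in each tumor, and TPM keep no number of reads, so that the sequencing depth is unknown and no counting error can be given. Genes entered the test if 3 or more tumors had 1 TPM or more, which left 15117. Over these, limma with Benjamini-Hochberg adjustment called 25 at an adjusted p under 0.05 (0.165% of the genes tested), 12 higher (0.0794%) and 13 lower (0.086%) in *VP* tumors, and with 1 tumor left out the count was 3 to 23. Differences are *VP* minus *Trp53fl/fl* on the log2(TPM + 1) scale, and their median over all genes tested was -0.07.

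In *Trp53fl/fl* tumors the level of *Plac9a* was 8.41, 8.82 and 8.61 TPM, and in *VP* tumors it was 50.97, 54.88 and 40.90 TPM. The *Trp53fl/fl* tumors lay close together, and every *VP* tumor was far above them. The mean was 8.61 ± 0.205 TPM against 48.9 ± 7.21 TPM (SD, n = 3 each), a ratio of 5.68, and the lowest *VP* tumor was 4.64 times the highest *Trp53fl/fl* tumor. The log2 difference was 2.37, which placed *Plac9a* at rank 17 by increase among the 15117 genes. By level it moved from rank 9836 among these genes in *Trp53fl/fl* tumors to rank 3024 in *VP* tumors. *Plac9a* and *Tmem254a* were chosen with this contrast in view, so that their differences are given as a description and without a test.

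*Tmem254a* had the highest TPM in every tumor among the genes of the stretch with values, with TPM compared per length. Its level was 74.52, 76.97 and 99.69 TPM without Cre, and with Cre it was 278.22, 323.31 and 327.45 TPM. The genotypes did not overlap, and the *Trp53fl/fl* tumor with the highest level was still 2.79 times below the lowest *VP* tumor. The mean was 83.7 ± 13.9 TPM against 310 ± 27.3 TPM (SD, n = 3 each), a ratio of 3.70 and a log2 difference of 1.88, at rank 41 by increase. In *VP* tumors *Tmem254a* stood at rank 453 by level among the genes tested, from rank 1773 in *Trp53fl/fl* tumors. Summed, *Plac9a* and *Tmem254a* made 82.9, 85.8 and 108 TPM in the *Trp53fl/fl* tumors and 329, 378 and 368 TPM in the *VP* tumors, a ratio of 3.88 and a log2 difference of 1.95.

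The increase was unequal within the pair. The TPM of *Tmem254a* was 8.86, 8.73 and 11.6 times that of *Plac9a* in the *Trp53fl/fl* tumors and 5.46, 5.89 and 8.01 times in the *VP* tumors. The ratio was thus lower in every *VP* tumor than in any *Trp53fl/fl* tumor, by a small margin between 8.01 and 8.73, and this too is a description. Tumors did not keep 1 order in both genes, since *VP* replicate 3 had the lowest *Plac9a* and the highest *Tmem254a* among *VP* tumors.

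The homeobox genes of the same copy were low in all tumors. *Cphx1* had 0.95, 1.02 and 0.65 TPM in *Trp53fl/fl* tumors against 2.47, 3.82 and 3.11 TPM in *VP* tumors, a ratio of means of 3.59. *Duxbl1* was at 0.32, 0.53 and 0.33 TPM against 2.82, 1.60 and 1.23 TPM, a ratio of 4.79. In both genes every *VP* tumor lay above every *Trp53fl/fl* tumor, which holds for 6.03% of the genes tested. *Cphx1* and *Duxbl1*, which were picked by position, had log2 differences of 1.13 (standard error 0.21) and 1.01 (standard error 0.26). Neither passed the adjustment over all genes (limma adjusted p = 0.142 and 0.278). *Duxbl1* reached 1 TPM in *VP* tumors alone and *Cphx1* in 1 *Trp53fl/fl* tumor besides, so both entered the test only through the genotype in which they are high and nothing is read from their passing the filter or from the lack of overlap. The added constant of 1 understates the change of genes at this level. With a constant of 0.1 the log2 differences were 1.73 for *Cphx1* and 1.95 for *Duxbl1* (limma adjusted p = 0.169 and 0.279). The remaining annotated gene of the stretch with values, the pseudogene *Gm19013*, stayed between 0 and 0.42 TPM in all 6 tumors.

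**Figure D3:**
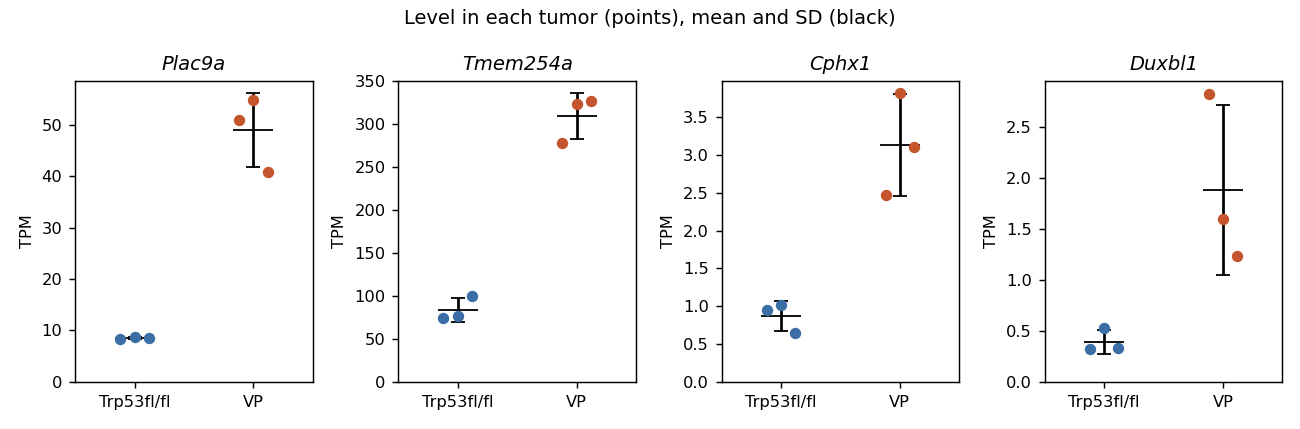
TPM of the 4 genes of the copy in each tumor (points, 3 per genotype), with the mean (long black line) and SD (whiskers), each panel on its own linear scale from 0. The *VP* tumors lie above all *Trp53fl/fl* tumors in each panel, with ratios of means from 3.59 (*Cphx1*) to 5.68 (*Plac9a*).

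**Figure D4:**
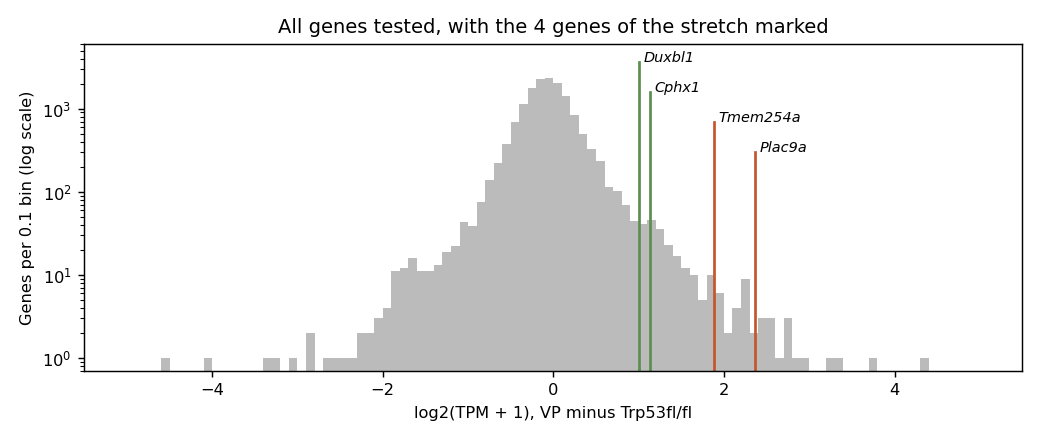
Number of genes per 0.1 bin of the difference in log2(TPM + 1), *VP* minus *Trp53fl/fl*, for the 15117 genes tested, on a logarithmic vertical axis. Vertical lines, whose heights carry no value, mark *Plac9a* (2.37), *Tmem254a* (1.88), *Cphx1* (1.13) and *Duxbl1* (1.01) in the right tail, in which 239 genes (1.58%) have a difference of at least 1.

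Genes on either side of the stretch give the setting in which these values stand. Of 87 annotated genes that start within 2 Mb of either end of the *Plac9* and *Tmem254* genes, other than these 5, 18 were tested, and 16 of them lie outside the repeat, 7 on the side of *Anxa11* and 9 on the side of *Slmap*. None of the 18 passed the limma adjustment over all genes, while 3 of the 16 outside the repeat had an unadjusted p under 0.05, which 12.5% of all genes tested had. The log2 differences of the 16 ran from -0.55 to 0.45 with a median of -0.14, beside -0.07 over all genes tested. No *VP* tumor set was entirely above the *Trp53fl/fl* tumors in any of the 16 (6.03% over all genes), and 4 were entirely below (13.3% over all genes).

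*Anxa11*, which encodes a calcium-dependent phospholipid-binding protein, ends 701 bases from the end of *Plac9a*, with both genes pointing toward each other. It was at 110.49, 99.03 and 137.22 TPM in the *Trp53fl/fl* tumors and 147.26, 149.27 and 135.58 TPM in the *VP* tumors, and the genotypes overlapped. The log2 difference of *Anxa11* was 0.33 (standard error 0.14, limma unadjusted p = 0.0487, adjusted p = 0.397). Relative to *Anxa11*, *Plac9a* stood at 0.0627 to 0.0891 in *Trp53fl/fl* tumors and at 0.302 to 0.368 in *VP* tumors, and *Tmem254a* at 0.674 to 0.777 and at 1.89 to 2.42. On the far side of the repeat the nearest gene tested was *Slmap*, for a tail-anchored membrane protein, 144 kb past *Duxbl3*. It was lower in every *VP* tumor, at 60.7 ± 8.04 TPM against 47.9 ± 6.41 TPM (SD, n = 3 each), and its log2 difference of -0.34 did not pass (limma adjusted p = 0.408).

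No other flanking gene passed the adjustment either. *Ppif*, for the mitochondrial cyclophilin, had the most positive difference of the 16, 0.45 (limma adjusted p = 0.481), with overlapping genotypes. *Fam208a*, for a subunit of a gene-silencing complex, had the most negative, -0.55 (limma unadjusted p = 0.0188, adjusted p = 0.333), and *Dennd6a*, for an exchange factor of a Rab GTPase, followed at an unadjusted p of 0.0404 (limma log2 difference -0.39, adjusted p = 0.382). *Appl1*, for an endosomal adaptor, stood at -0.42. *Zcchc24* (-0.15), *Zmiz1* (-0.09), *Polr3a* (0.03), *Rps24* (-0.02) and *Dlg5* (-0.22) on the *Anxa11* side had overlapping genotypes, as did *Arf4* (0.07), *Il17rd* (-0.23), *Arhgef3* (0.02) and *Ccdc66* (-0.13) on the other, while *Pde12* (-0.20) was lower in each *VP* tumor. The values in these brackets are log2 differences, with limma adjusted p-values from 0.560 to 0.964.

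**Figure D5:**
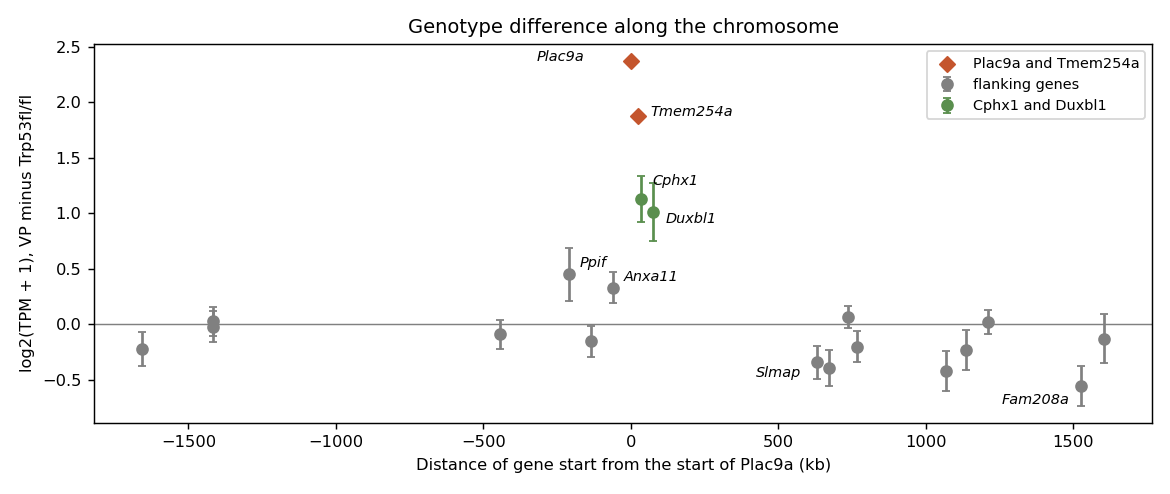
Difference in log2(TPM + 1), *VP* minus *Trp53fl/fl* (vertical axis), of the tested genes by the distance of their start from that of *Plac9a* in kb (horizontal axis), with limma standard errors for the genes that were tested by position. The 4 genes of the repeat lie between 1.01 and 2.37 and the 16 flanking genes between -0.55 and 0.45. *Plac9a* and *Tmem254a* were chosen with this contrast in view, and *Cphx1* and *Duxbl1* entered the test only through the *VP* tumors. Their distance from the flanking genes is therefore a description.

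The mix of cells in the tumors was read from marker genes beside these values, and its part in the differences was not tested. Epithelial markers, such as *Epcam* and *Krt8*, were abundant in all tumors and their sum over 12 genes was 10700 to 11200 TPM in *Trp53fl/fl* tumors and 12200 to 13400 TPM in *VP* tumors, without overlap. The 12 did not rise alike. Their log2 differences had a median of 0.20 and ran from 0.47 for *Lgals4* and 0.39 for *Krt19* down to 0.00 for *Epcam* and -0.01 for *Cdx2*. Summed markers of fibroblasts (10 genes, 884 to 976 against 740 to 1090 TPM), smooth muscle (7 genes, 492 to 816 against 418 to 1360 TPM), endothelium (6 genes, 119 to 156 against 139 to 152 TPM) and mesothelium (5 genes, 6.62 to 10.3 against 7.75 to 26.1 TPM) overlapped between the genotypes. The fibroblast markers did not move alike. *Lum* (log2 difference -0.57), *Pdgfra* (-0.56) and *Dpt* (-0.52) were lower in every *VP* tumor, which holds for 13.3% of all genes. The other fibroblast markers tested ran from -0.20 for *Dcn* to 0.29 for *Thy1*. The leukocyte markers (7 genes) did not overlap, at 307 to 604 TPM against 959 to 1670 TPM, but without *S100a8* and *S100a9*, calcium-binding proteins of neutrophils, left out after the values were seen, the other 5 were at 59.9 to 83.5 against 54.3 to 75.6 TPM. No marker in these lists passed the limma adjustment (0.165% of all genes did), and no marker was at 0 in all tumors. An unadjusted p under 0.05 was found for 8, namely 3 of 12 tested epithelial, 3 of 9 fibroblast and 2 of 7 leukocyte markers. That is a larger share of the markers than the 12.5% of all genes, which was not tested. The smooth muscle (7 tested), endothelium (6 tested) and mesothelium (1 tested, *Msln*) markers held none. *VP* replicate 3 had the lowest leukocyte sum of the *VP* tumors and also their lowest *Plac9a*, while its *Tmem254a* was their highest. Without *S100a8* and *S100a9* the leukocyte sum was 54.3, 75.6 and 75.0 TPM in *VP* replicates 1, 2 and 3, with replicate 1 lowest.

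Other genes with an identical predicted protein elsewhere in the annotation were set beside the locus. Not all are duplicated genes, since second entries under the same name, such as *Ptp4a1* and *Sept2*, are among them. Outside the 5 genes of the locus, 229 tested genes share an identical predicted protein with another gene in GENCODE M21, and 1 of them, *Nnt*, passed the limma adjustment (0.437%, beside 0.165% of all genes), with a log2 difference of -1.35 (limma adjusted p = 0.0207). *Nnt* encodes the mitochondrial proton-translocating transhydrogenase, and its partner is a second entry of the same name, listed at 0. The call was lost without *Trp53fl/fl* replicate 1 or 2 and without *VP* replicate 1 or 2, where 0 of the copies passed. The median log2 difference of the 229 genes was -0.11. Of them 41 had an unadjusted p under 0.05, 14 higher and 27 lower, *Cphx1* and *Duxbl1* counted among the higher. Over all genes tested the shares were 12.5%, 4.51% higher and 8% lower. Each count is a larger share of the 229 than of all genes, which was not tested. In only 2 of the 229 is a copy with the identical protein missing among the genes with values, and these are *Cphx1* and *Duxbl1*.

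The genes with the most similar course over the 6 tumors were found by the root mean square difference of log2(TPM + 1) after each gene's mean was subtracted. For *Plac9a* the closest was *Gm29787* on chromosome 13, listed at 0 in the *Trp53fl/fl* tumors and at 3.10 to 6.21 TPM in the *VP* tumors, with a difference of 0.128. It was followed by *Stfa3*, a stefin of the cystatin family (0.198), *AA465934* (0.296), *Lrmda* (0.317) and *Ifitm6*, an interferon-induced transmembrane protein (0.319), and *Tmem254a* came next at place 6 (0.321). *Lrmda* is also on chromosome 14, from 22019712 to 23056085, and was at 0.357 TPM on average in *Trp53fl/fl* tumors and 4.37 TPM in *VP* tumors. For *Tmem254a* the closest were the chemokine genes *Cxcl2* (0.162) and *Ccl2* (0.257), then *Gm43712* (0.261), *Amd2*, a gene for S-adenosylmethionine decarboxylase (0.275), and *Tlcd2* (0.278), with *Plac9a* at place 8. *Cphx1* stood at place 50 and *Duxbl1* at place 86 from *Plac9a*. *Gm29787*, *Stfa3*, *Lrmda*, *Gm43712* and *Amd2* were under 1 TPM in every *Trp53fl/fl* tumor and entered the test only through the *VP* tumors. Genes were ranked here by a course that the genotype contrast dominates, so likeness in course is a description over these 6 tumors.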

How the data were processed

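Poly(A) RNA of 6 tumors was read from both ends, and the authors deposited TPM per gene with 2 decimals. The submitters' processing notes name HISAT2, StringTie and mm9, without versions. TPM keep no depth, and scaling to a fixed total ties each value to all others. How multi-mapped reads were counted is not given in the sources used here.

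From the deposited TPM, log2(TPM + 1) was tested with limma 3.58.1 in R 4.3.3 (empirical Bayes with trend, two-sided) for the 15117 genes that reached 1 TPM in 3 or more tumors, and p-values were adjusted over all of them by Benjamini-Hochberg. The procedure was tested on simulated data. Members of the locus and all lists were chosen with earlier results of these data known. Genes were named by rule as all members, *Trp53*, tested genes within 2 Mb, the homeobox genes of the repeat, cell type markers, the 5 nearest courses per member and called identical-protein copies. No protein table was at hand, so proteins were translated from GENCODE M21 transcripts (at least 50 residues) with Biopython 1.88 in place of RefSeq's. Age, doses and times come from the methods. No column was left unassigned (0), and no 2 columns were identical. Whether tumors came from separate mice is not in the labels, so p-values measure the spread between these samples. The alternatives were a constant of 0.1, no filter, a filter on the mean (5 TPM), rescaling by median ratios, quantiles made equal, centring on 12 epithelial markers, the replicate number as a block, no trend, summed copies and each tumor left out.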

Additional observations from a re-analysis of the deposited data

How the results depend on the processing

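The sum of *Plac9a* and *Tmem254a* stayed higher in *VP* tumors under each of the 15 alternatives. Its log2 difference of 1.95 moved beyond the spread between tumors only with epithelial centring, to 1.75, where *Plac9a* was at 2.17 and *Tmem254a* at 1.68. That centring lowers all genes alike and took the median of all genes from -0.07 to -0.27. With a tumor left out the sum ran from 1.88 to 2.07. The count of called neighbours was 0 in each setting, also without a tumor (0 to 0), with 2 to 9 at an unadjusted p under 0.05, *Cphx1* and *Duxbl1* included where they were tested. The adjusted p of *Cphx1* ran from 0.103 to 0.442 and that of *Duxbl1* from 0.117 to 0.618 where each was tested, and neither could be tested with a mean of at least 5 TPM, nor *Duxbl1* without a *VP* tumor.

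The 25 genes called became 7 without the filter, 50 with epithelial centring (14 higher and the rest lower), 10 with the replicate block (7 higher) and 3 to 23 with a tumor left out, 3 without *Trp53fl/fl* replicate 1, 14 without replicate 2 and 9 without replicate 3, and 7 and 5 without *VP* replicates 1 and 2. Higher calls were 13 of 22 with median-of-ratios rescaling. The identical-protein copy called (1) became 0 without the filter and with the replicate block, and 0 to 1 with a tumor left out, 0 without *Trp53fl/fl* replicate 1 or 2 and without *VP* replicate 1 or 2. The causes were not tested. Tumors that share a replicate number did not deviate together (correlations 0.0185, -0.052 and 0.0175), so the number is not taken to pair them. The unknown depth leaves the counting error of low values such as those of *Cphx1* and *Duxbl1* open to no estimate.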
